A study of Homo sapiens with 6 samples.

Results

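The 2 ChIP-seq peak lists of ZCCHC8-KO cells were compared with each other: the list for EZH2, the enzyme, and the list for H3K27me3, the histone mark that the enzyme writes. Members were all peaks of these 2 lists after identical lines were removed, 19566 EZH2 peaks and 69840 H3K27me3 peaks, together 89406 of the 213235 peaks of the series. The series covers ACHN cells, an established human renal carcinoma line, as ZCCHC8-WT (titles with Ctrl) and ZCCHC8-KO (titles with sgZ8), with no other treatment named in the labels. Each genotype had 1 library for EZH2, 1 for H3K27me3 and 1 input library, from chromatin fixed with 1% formaldehyde for 10 minutes. Whether the KO cells are 1 clone or a pool is not stated in the labels. The WT lists, with 123829 peaks, stand beside the KO values for comparison.

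EZH2 is the methyltransferase of PRC2, a Polycomb complex that places methyl groups on lysine 27 of histone H3. The trimethylated form, H3K27me3, is bound back by the PRC2 subunit EED, which lets the mark spread from sites where the complex is recruited, often CpG-rich promoters of developmental genes. The mark can therefore extend well beyond the sites where the enzyme is found by ChIP. ZCCHC8 is the scaffold of the NEXT complex, a nuclear adaptor that passes short-lived RNAs to the RNA exosome, and the series places its knockout beside PRC2 and its mark.

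With 1 library per antibody and genotype there is no replicate, so no difference was tested and no p-value is given. Shares carry exact 95% Clopper-Pearson intervals, which cover counting error only. The files hold peak positions and a score that the labels leave undefined. Read depth is unknown, so a gene without a listed peak is a gene below the threshold of the list, not one shown to lack the protein or mark. None of ZCCHC8, EZH2, SUZ12, EED, RBM7 and MTREX had a peak within 5 kb of its ends in any of the 4 lists. Lists of EZH2 and H3K27me3 peaks do not check the knockout, with or without a peak at ZCCHC8. Unless chromosome Y is named, values cover chromosomes 1 to 22 and X.

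The promoter sequences of 4 genes are shown first, because at these genes an EZH2 peak lies over the start of the gene itself. They run 5′ to 3′ on the strand of the gene, from 250 bases before to 50 after the start, from RefSeq on GRCh38.p14, with CG dinucleotides in capitals. CPVL (chr7:29195218-29195517, minus strand), a serine carboxypeptidase gene, had 66 bases under EZH2 and 25 under H3K27me3, and SOX5 (chr12:24562442-24562741, minus strand), a transcription factor of cartilage and neurons, had 189 bases under EZH2. EVX1 (chr7:27242552-27242851, plus strand), a homeobox gene at the end of the HOXA cluster, had 183, and SGPP2 (chr2:222423738-222424037, plus strand), a sphingosine phosphatase gene, had 100 bases under EZH2. CPVL and SOX5 carried both EZH2 and H3K27me3 near their ends, and EVX1 and SGPP2 carried EZH2 without the mark. EZH2 over the promoter sequence was uncommon, and these 4 genes were picked for it. It was found at 48 of 909 genes with both (5.28%) and 14 of 555 with EZH2 only (2.52%), where a sequence was at hand.
CPVL: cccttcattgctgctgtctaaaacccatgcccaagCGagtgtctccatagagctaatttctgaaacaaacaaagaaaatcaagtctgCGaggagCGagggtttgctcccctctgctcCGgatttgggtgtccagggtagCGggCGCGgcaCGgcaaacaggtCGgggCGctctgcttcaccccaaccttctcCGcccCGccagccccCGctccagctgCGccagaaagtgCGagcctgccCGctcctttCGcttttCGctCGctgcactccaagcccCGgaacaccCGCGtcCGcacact
SOX5: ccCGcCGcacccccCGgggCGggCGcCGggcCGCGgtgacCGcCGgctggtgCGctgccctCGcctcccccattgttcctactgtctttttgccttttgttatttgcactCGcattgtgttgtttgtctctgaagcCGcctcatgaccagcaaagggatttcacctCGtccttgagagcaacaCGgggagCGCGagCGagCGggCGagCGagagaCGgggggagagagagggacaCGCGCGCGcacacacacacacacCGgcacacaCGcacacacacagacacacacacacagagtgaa
EVX1: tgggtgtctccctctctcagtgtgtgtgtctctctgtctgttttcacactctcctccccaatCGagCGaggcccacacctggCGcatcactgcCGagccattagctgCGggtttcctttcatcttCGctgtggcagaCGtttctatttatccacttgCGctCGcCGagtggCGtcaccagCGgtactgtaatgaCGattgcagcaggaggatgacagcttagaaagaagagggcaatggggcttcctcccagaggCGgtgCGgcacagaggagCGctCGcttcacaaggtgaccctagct
SGPP2: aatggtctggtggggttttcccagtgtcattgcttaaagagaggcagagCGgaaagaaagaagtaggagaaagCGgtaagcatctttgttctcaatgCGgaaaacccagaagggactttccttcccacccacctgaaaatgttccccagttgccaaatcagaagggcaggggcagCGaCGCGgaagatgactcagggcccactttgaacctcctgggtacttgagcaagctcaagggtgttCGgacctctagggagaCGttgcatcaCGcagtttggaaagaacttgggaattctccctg
The 4 sequences held 23, 29, 17 and 9 CG dinucleotides in that order, against a median of 22 over 15812 promoters of the same length. The letters CGCG, which read the same on both strands, occurred 2 times in CPVL, 5 times in SOX5 (overlapping matches counted) and once in SGPP2, and occur in 65.0% of all these promoters. GAGAGA, sought on both strands, occurred 3 times in SOX5 and 2 times in EVX1 and occurs in 21.2% of promoters. TATAAA, sought on both strands, was in none of the 4 and is in 9.75% of promoters. The promoters with EZH2 and no mark were those with fewer CG dinucleotides among these 4, but no statement on the gene classes follows, because a sequence was at hand for only 76.3% of the genes with both EZH2 and H3K27me3 and the comparison of classes is void.

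EZH2 and H3K27me3 were listed as narrow peaks that only partly coincided. In KO cells 3716 of 19547 EZH2 peaks (19%, interval 18.5 to 19.6%) overlapped an H3K27me3 peak by at least 1 base, and 3679 of 69832 H3K27me3 peaks (5.27%, 5.10 to 5.44%) overlapped an EZH2 peak. The shared sequence was 0.782 Mb, which is 14.5% of the 5.38 Mb under EZH2 and 3.38% of the 23.2 Mb under H3K27me3. In WT the shares of peaks were 14% and 4.52%. The EZH2 and H3K27me3 libraries of a genotype share 1 input as control, so a fault of that input would enter both lists.

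Most EZH2 peaks that did not overlap the mark still lay close to it. Of all EZH2 peaks in KO cells, 35.8% lay within 1 kb of an H3K27me3 peak, 66.2% within 10 kb and 87.6% within 100 kb. For the 15831 EZH2 peaks outside the mark, the median distance to it was 5868 bp. Seen from the mark, 12.6% of H3K27me3 peaks lay within 1 kb of EZH2 and 41.9% within 10 kb, and those without overlap lay at a median of 17175 bp. The distances depend on how many peaks each list holds, and the H3K27me3 list holds more.

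Overlap rose with the width of the EZH2 peak at every step. It was 11.8% for peaks under 200 bp, 20.3% from 250 to under 350 bp, 44.9% (422 of 940) from 500 to under 1000 bp and 61.4% (70 of 114, interval 51.8 to 70.4%) at 1000 bp or more. A wide peak has more bases with which to touch another, and that geometric part was not separated. The widest class thus still held 44 EZH2 peaks with no H3K27me3 peak over them.

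**Figure D1:**
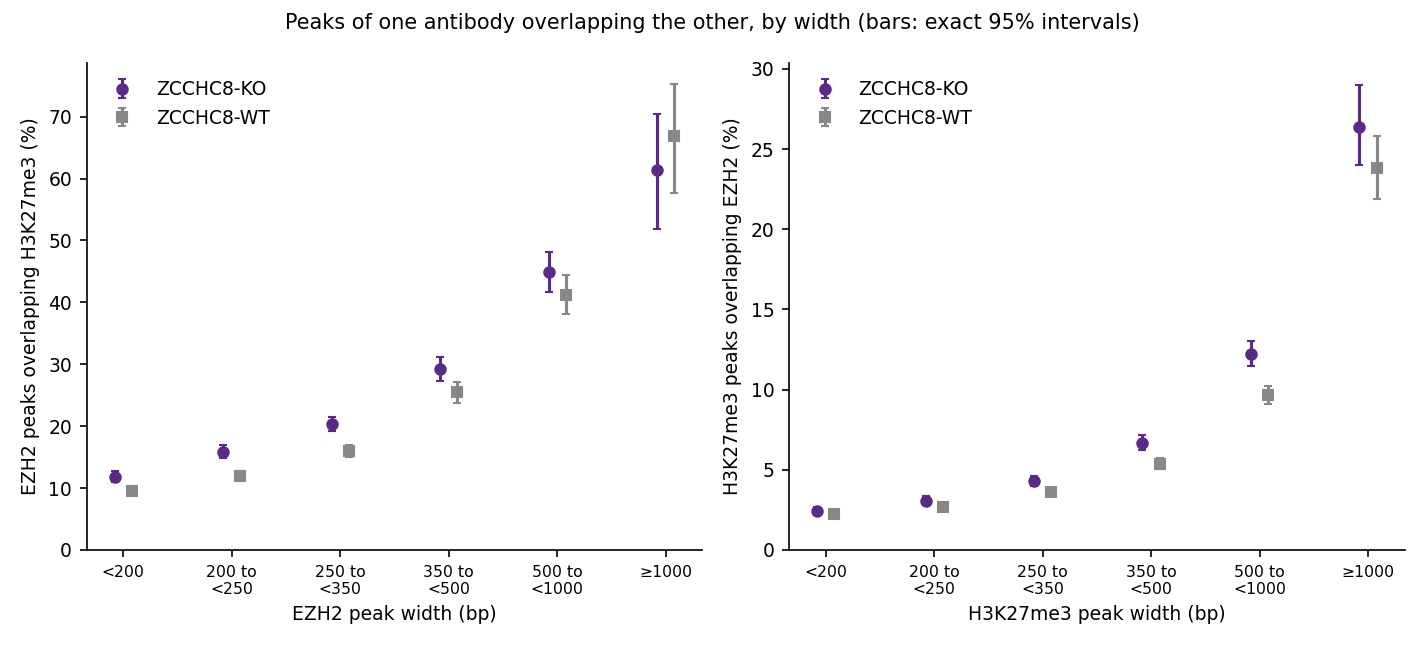
Share of EZH2 peaks overlapping H3K27me3 (left) and of H3K27me3 peaks overlapping EZH2 (right) in percent, by the width of the peak in bp, for ZCCHC8-KO (circles) and ZCCHC8-WT (squares), with exact 95% intervals as bars. In KO the left share goes from 11.8% under 200 bp to 61.4% at 1000 bp or more, and the right one from 2.42% to 26.4%.

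By the authors' score, overlap was highest at scores of 10 to 14, above the list median of 5 but below the top scores. It was 11.2% at the lowest score, 4, then 20.5% at 6, 32.0% at 8 to 9 and 45.9% at 10 to 14, and 33.3% (33 of 99, 24.2 to 43.5%) at 50 or more. Of those 99 peaks, 66 fell in 6 windows of 1 Mb on chromosomes 1, 5, 16 and 17, with 2 genes of any class between them. Without these windows the share at 50 or more was 27.3% (9 of 33). For KO H3K27me3 peaks, overlap with EZH2 went from 1.96% at score 4 to 21.4% at 10 to 14 and 78.7% (37 of 47) at 50 or more. The same 6 windows also held most of these 47 H3K27me3 peaks (5, 7, 7, 2, 4 and 6 per window), and these were not left out here. In WT the share of H3K27me3 peaks at 50 or more was 23.8% (5 of 21).

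EZH2 peaks over the mark were also listed in WT cells more often than those away from it. A WT EZH2 peak overlapped 16.7% (622 of 3716) of the KO EZH2 peaks on the mark, 8.43% of those off the mark but within 10 kb, and 2.39% (158 of 6615) of those farther away. The gap was present among narrow peaks, with 7.99% on the mark and 3.12% off it under 200 bp. It was not seen among the widest, with 77.1% (54 of 70) and 77.3% (34 of 44) at 1000 bp or more. H3K27me3 peaks showed the same order: 41.9% of those on EZH2, 28.0% of those within 10 kb and 15.4% of the rest overlapped a WT H3K27me3 peak.

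By place, 10026 of the EZH2 peaks lay more than 10 kb from any protein-coding gene and 19.7% of these overlapped the mark. The share was 16.4% for the 6693 peaks inside genes, 23.8% for the 2212 peaks 1 to 10 kb outside and 19.2% for the 616 peaks within 1 kb of a gene end. By chromosome the share ran from 29.2% on chromosome 12 to 5.57% on chromosome 4 and 5.26% (3 of 57) on X. Chromosome 2 stood at 26.6%, and at 21.7% without a gene-free stretch that is described with the domains. Chromosome 12 also had the densest lists, with 16.2 EZH2 and 49.3 H3K27me3 peaks per Mb, against 0.365 and 1.74 on X. Copy number was not measured here, and its part in these densities was not tested.

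Genes were classed by listed peaks within 5 kb of either end, for 19974 protein-coding genes. Both EZH2 and H3K27me3 were present at 1252 genes (6.27%), EZH2 alone at 731 (3.66%) and H3K27me3 alone at 2194 (11.0%), and 15797 genes had neither. The WT counts were 1656 (8.29%), 1352 (6.77%) and 2260 (11.3%). H3K27me3 was found at 63.1% of genes with EZH2 and at 12.2% of genes without it. EZH2 was found at 36.3% of genes with H3K27me3 and at 4.42% of genes without. In all, EZH2 was listed at 9.93% of genes in KO and 15.1% in WT, H3K27me3 at 17.3% and 19.6%, and either at 20.9% and 26.4%. With windows of only 1 kb around the ends, 243 genes had both (1.22%), 383 EZH2 only (1.92%) and 887 H3K27me3 only (4.44%), so that both became the smallest class. Neighbouring genes share windows, so genes are not independent units. The gene table gives no exons, so peaks are placed by gene ends only.

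The mark was more frequent where EZH2 had several peaks. H3K27me3 was present at 53.9% of the 1292 genes with 1 EZH2 peak, 72.9% of the 325 with 2, 86.4% of the 258 with 3 to 4 and 88.9% (96 of 108, interval 81.4 to 94.1%) of those with 5 or more. In the other direction, EZH2 was present at 23.8% of genes with 1 H3K27me3 peak and 72.9% of genes with 5 or more. Even so, at the 1252 genes with both, an EZH2 peak and an H3K27me3 peak overlapped at only 518 (41.4%, 38.6 to 44.2%). They lay apart by up to 1 kb at 277 and by more than 1 kb at 457, with a median of 1792 bp where apart.

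Genes of non-coding RNAs were classed in the same way. Of 18177 lncRNA genes 1132 had both (6.23%), 749 EZH2 only (4.12%) and 2880 H3K27me3 only (15.8%), so the H3K27me3-only class was larger than among protein-coding genes. In WT the lncRNA shares were 9.37%, 6.72% and 17.6%. Of 1911 miRNA genes 41 had both (2.15%), 32 EZH2 only (1.67%) and 106 H3K27me3 only (5.55%), and in WT 2.35%, 4.55% and 6.17%. All 3 miRNA shares in KO lay below those of protein-coding genes. The windows around the 2 ends of a short miRNA gene merge, so they span less sequence than those of most protein-coding genes. The part of this in the lower shares was not separated.

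The 2 single classes rest largely on single peaks. Of the EZH2-only genes 81.5% had 1 EZH2 peak, and of the H3K27me3-only genes 57.2% had 1 H3K27me3 peak. Median covered shares of the windows were 2.10% for EZH2 and 3.90% for H3K27me3 at genes with both, 1.30% at EZH2-only genes and 1.99% at H3K27me3-only genes. Just beyond the window, 30% of the EZH2-only genes had an H3K27me3 peak within 10 kb of an end, and 16.5% of the H3K27me3-only genes had an EZH2 peak. Measured from the peaks in the window, the median distance of EZH2-only genes to the nearest H3K27me3 peak was 29 kb, and that of H3K27me3-only genes to the nearest EZH2 peak 40.9 kb. Median gene lengths were 29.9 kb (both), 31.5 kb (EZH2 only) and 26.7 kb (H3K27me3 only), against 24.2 kb over all genes.

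Set against WT, genes with both kept their class most often. Of the 1252, 708 (56.5%) also had both in WT and 296 (23.6%) had H3K27me3 alone there. Of the EZH2-only genes 134 (18.3%) were EZH2-only in WT and 365 (49.9%) had neither. Of the H3K27me3-only genes 835 (38.1%) were in the same class in WT, 512 (23.3%) had both and 683 (31.1%) neither. These differences between genotypes rest on 1 library each and were not tested.

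**Figure D2:**
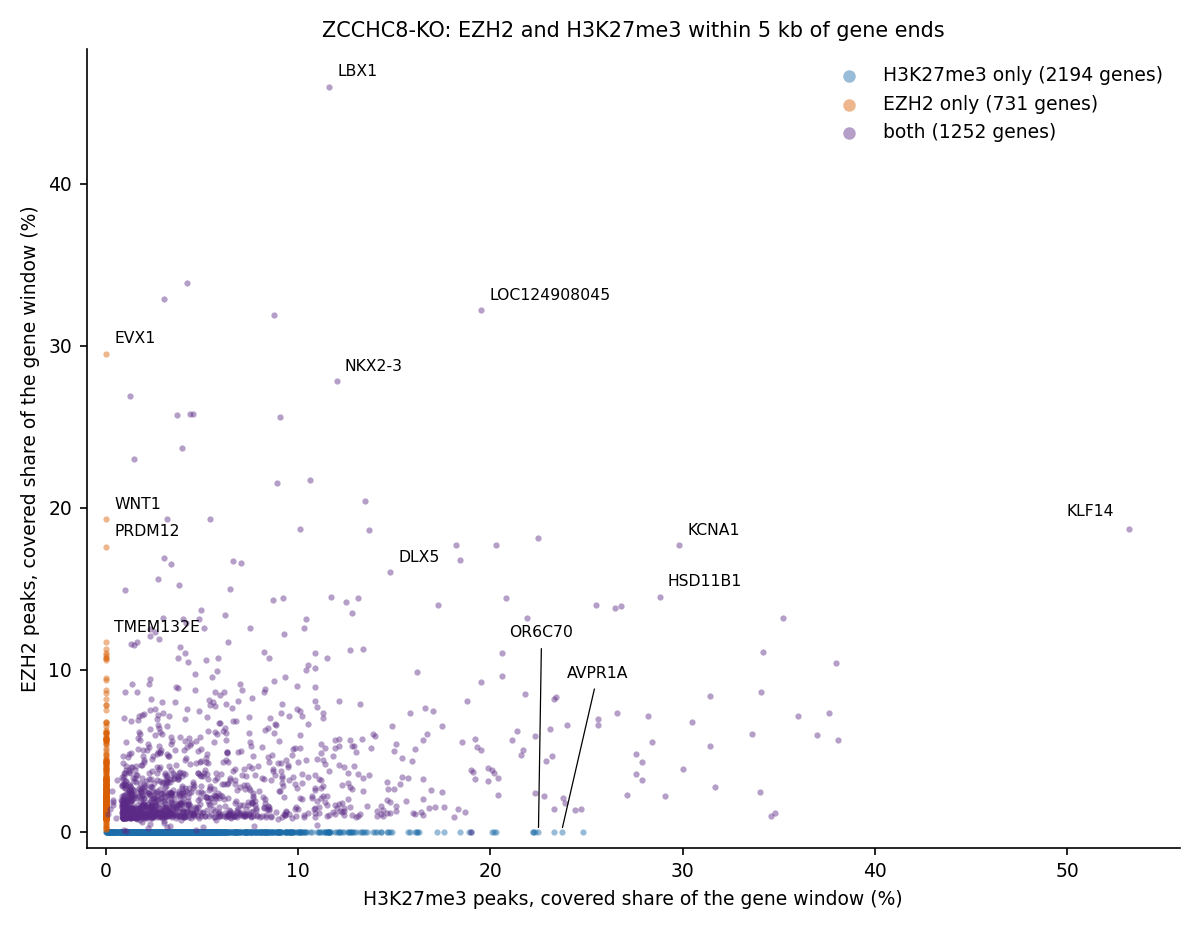
Each point is a protein-coding gene of ZCCHC8-KO cells with at least 1 listed peak within 5 kb of an end; the axes give the percent of that window covered by H3K27me3 peaks (x) and EZH2 peaks (y). Genes with both (1252) fill the field between the EZH2-only genes (731) on the left axis and the H3K27me3-only genes (2194) on the lower axis, and KLF14 lies farthest right at 53.2%.

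The genes with both that the rule takes, by the smaller of the 2 covers, included transcription factors, a channel, a receptor, a transporter and enzymes. KLF14 (chromosome 7, 130730697 to 130734207), a Krüppel-like transcription factor known for its role in fat tissue, had 53.2% of its window under H3K27me3 and 18.7% under EZH2, against 61.3% and 14.9% in WT. One H3K27me3 peak of 4453 bp began just beyond the upper end of the gene, and 4 of the 6 EZH2 peaks of the window overlapped the mark. KCNA1 (chromosome 12, 4909905 to 4918256), a voltage-gated potassium channel, had 29.8% under H3K27me3 and 17.7% under EZH2, against 33.7% and 17.4% in WT. Its widest EZH2 peak, 1611 bp, lay beside the gene's lower end. KLF14 and KCNA1 thus had EZH2 and the mark in both genotypes, in blocks that reach past the gene.

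DLX5 (chromosome 7, 97020396 to 97024831), a distal-less homeobox gene of bone and craniofacial development, was covered to 16.0% by EZH2 and 14.8% by H3K27me3, against 13.2% and 6.30% in WT. SOX5 had 14.4% under EZH2 and 20.8% under H3K27me3 (WT 12.5% and 24.2%), with 4 of its 6 EZH2 peaks overlapping the mark. HSD11B1, which regenerates active glucocorticoid, had 14.5% and 28.8% (WT 6.40% and 30%), with 7 of 8 EZH2 peaks on the mark. These 3 genes had both in WT too. ACOXL, an acyl-CoA oxidase-like gene, had 18.1% under EZH2 and 22.5% under H3K27me3 in KO, against 10.6% and 2.53% in WT. PROKR1, a prokineticin receptor, had 17.7% and 20.3% (WT 15% and 16.9%), and CPVL 17.7% and 18.2% (WT 9.18% and 27.8%). SLC1A2, the main glutamate transporter of glia, had 16.8% and 18.4% (WT 18.9% and 8.06%). Of the 10 genes that the rule takes, only LOC124908045 lacked both in WT. This predicted gene, which lies in the region of the POU-domain factor POU3F3, had 32.2% under EZH2 and 19.5% under H3K27me3 in KO.

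Some genes had far more of one than of the other. LBX1, a homeobox factor needed by migrating limb muscle precursors, had the highest EZH2 cover among genes with both, 46.0%, with 11.6% under H3K27me3 (WT 47.8% and 8.08%). EN1, a homeobox gene of the midbrain and limb, had 33.9% and 4.20%, and NEUROD2, a neuronal bHLH factor, 32.9% and 3.02%. LBX1, EN1 and NEUROD2 were chosen after their values were seen. At the other end KRT1, a keratin of the outer epidermis, had 13.2% under EZH2 and 35.2% under H3K27me3, and KRT6C 11.1% and 34.2%. In WT these keratins had 2.17% and 27.6%, and 1.12% and 20.3%. KRT6C has close copies in the same cluster, so its reads may be split among them.

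The genes with EZH2 and no listed mark within 5 kb of an end were led by developmental regulators. EVX1 (chromosome 7, 27242802 to 27247830) had 9 EZH2 peaks over 29.5% of its window and no H3K27me3 peak, and WT had 6 EZH2 peaks over 16.9% and no mark either. WNT1, a secreted Wnt ligand of the midbrain, had 19.3% under EZH2 (WT 11.4%, with 3.45% under H3K27me3). PRDM12 (chromosome 9, 130664594 to 130682983), a regulator of pain-sensing neurons, had 17.6% (WT 15.9%) and no mark in WT. All 3 had more than 1 EZH2 peak, unlike most of their class.

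The other named genes of this class ranged from 10.6% to 11.7% under EZH2. They were TMEM132E, a gene linked to hearing, the homeobox gene MSX2, HES3, a bHLH repressor of the Notch pathway, SIM1, a bHLH factor of the hypothalamus, EFNA3, an ephrin ligand, ZBTB16, a zinc finger repressor, and the predicted gene LOC124905450. MSX2, SIM1 and ZBTB16 had some H3K27me3 in the WT window (3.39%, 1.44% and 2.18%), while TMEM132E, HES3 and EFNA3 had none. Farther inside the gene, beyond the window, KO H3K27me3 peaks were listed at TMEM132E (4), ZBTB16 (11) and SIM1 (1). Of all EZH2-only genes, 24.5% had an H3K27me3 peak in the gene or within 5 kb of it. LOC124905450 had no WT peak of either kind, and its widest KO peak carried a score of 290, far above the list median of 5.

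The genes with the mark and no listed EZH2 included receptors of hormone, smell and immune signals. AVPR1A (chromosome 12, 63142759 to 63151201), a vasopressin receptor, had 23.7% under H3K27me3 in 10 peaks (WT 30.7%, with 6.82% under EZH2). RAB3C, a GTPase of secretory vesicles, had 23.3% (WT 18.1%, EZH2 3.07%). OR6C70 and OR6C65, neighbouring olfactory receptors on chromosome 12, had 22.5% and 20.3% (WT 28.2% and 22.7%), with EZH2 in WT at OR6C65 only, 2.04%. CLEC6A, a fungal-sensing lectin of myeloid cells, had 22.3% (WT 26.8%) and KLRF1, an activating receptor of natural killer cells, 22.2% (WT 28.8%), and neither had EZH2 in WT. WFDC12, a secreted protein of the protease inhibitor family, GTSF1, a germline factor of the piRNA pathway, and HEMGN, a nuclear protein of blood progenitors, had 22.2%, 20.2% and 20.1%, with EZH2 over 2.15%, 1.24% and 4.72% in WT. DEFB103A, a beta-defensin gene with near-identical copies on chromosome 8, had 24.8%, a value that is uncertain where reads can fall on either copy. Of these 10 genes, which have the largest H3K27me3 cover, 7 had a listed EZH2 peak in WT cells, against 676 of 2194 (30.8%) in the whole class.

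**Figure D3:**
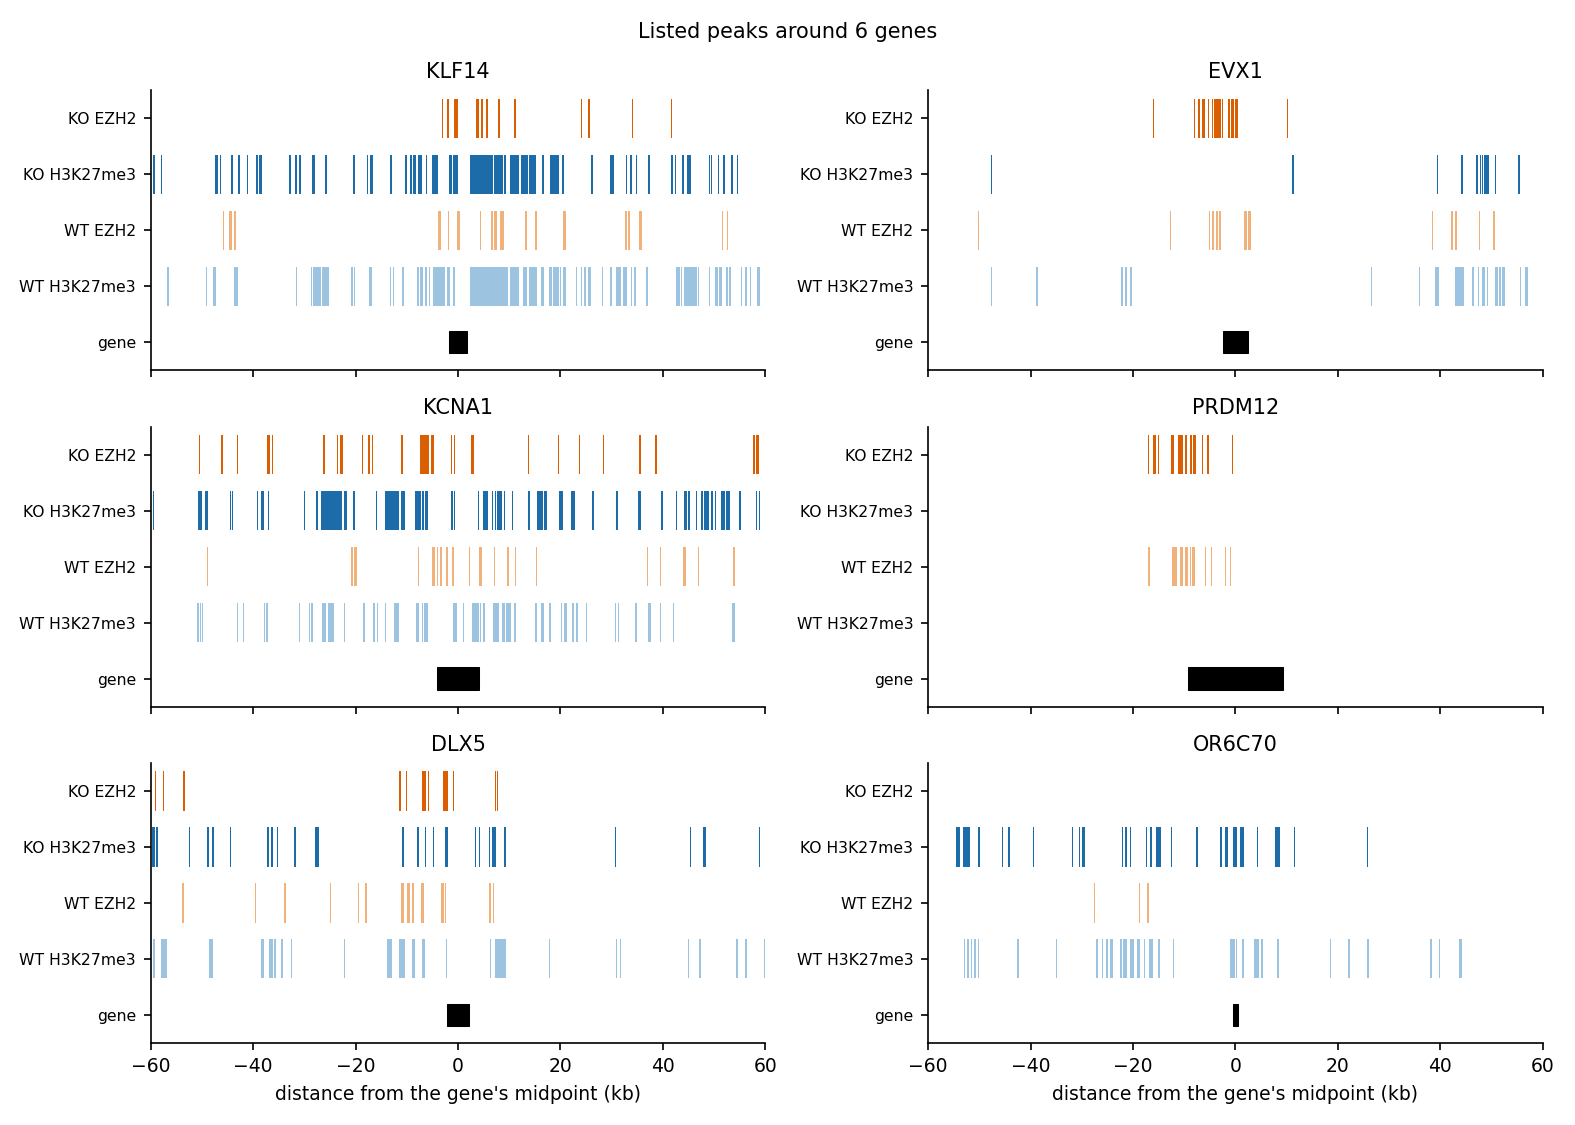
Listed peaks within 60 kb of the midpoints of 6 genes (x axis, distance in kb), with EZH2 in orange and H3K27me3 in blue, KO in dark and WT in light shades, and the gene as a black bar. KLF14 and KCNA1 lie in mixed blocks, the 11 KO EZH2 peaks around PRDM12 stand with 0 H3K27me3 peaks in KO and 0 in WT, and OR6C70 has 25 KO H3K27me3 peaks with 0 KO EZH2 peaks.

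The surroundings differed among the genes of 1 class. Within 60 kb of the midpoint of EVX1 there were 12 EZH2 and 11 H3K27me3 peaks in KO, with most of the mark near the far edge of that range on one side. Around PRDM12 there were 11 EZH2 and 0 H3K27me3 peaks, and 10 and 0 in WT. Around DLX5 there were 11 and 26, and around OR6C70 0 and 25, where WT had 3 and 32.

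Across fixed gene lists, factors of development held EZH2 most often, alone or with the mark. Of 124 homeobox genes outside the HOX clusters, 45 had both (36.3%), 18 EZH2 only (14.5%) and 14 H3K27me3 only (11.3%), against 6.27%, 3.66% and 11.0% of all genes. Of 120 bHLH, forkhead, SOX, T-box and GATA factors the counts were 36 (30%), 12 (10%) and 14 (11.7%). Of 78 secreted signalling ligands and antagonists they were 18 (23.1%), 16 (20.5%) and 10 (12.8%). In these 3 lists the H3K27me3-only share, 11.3% to 12.8%, was near the background, while 40% to 50.8% of their genes had EZH2, against 9.93% of all genes. NKX2-3, a homeobox gene of gut and spleen, had 27.8% under EZH2 and 12% under H3K27me3, and HEY2, a Notch target, 14% and 17.3%. GATA2, a blood and endothelial factor, and SHH, the hedgehog ligand, had EZH2 only, at 8.17% and 8.77%. IHH, another hedgehog ligand, had both, at 16.6% and 7.01%.

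H3K27me3 only is the largest of the 3 classes over all genes, with 11.0%, and its share was higher in these families of sensory and defence genes. Of 392 olfactory receptor genes 92 had H3K27me3 only (23.5%), 21 both (5.36%) and 9 EZH2 only (2.30%). Of 45 defensin genes 18 had H3K27me3 only (40%), 9 both (20%, against 6.27% of all genes) and 0 EZH2 only. Of 44 C-type lectin and KLR genes the counts were 13 (29.5%), 9 (20.5%) and 2 (4.55%). Of 28 bitter taste and vomeronasal receptor genes they were 6 (21.4%), 0 and 1 (3.57%). Keratins differed: of 55 genes 14 had both (25.5%), 9 H3K27me3 only (16.4%) and 1 EZH2 only (1.82%). Members of such clusters are close neighbours and similar in sequence, so they are not independent and reads may be placed on the wrong copy.

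Kidney genes differed by role. Of 42 regulators of kidney development, 8 had both, 4 EZH2 only and 4 H3K27me3 only. Of 51 tubule and podocyte genes, 4 had both (7.84%), 2 EZH2 only (3.92%) and 16 H3K27me3 only (31.4%, against 11.0% of all genes). In WT the counts of these 51 were 8, 3 and 9. LRP2, the megalin receptor of the proximal tubule, had 14% under EZH2 and 25.5% under H3K27me3 (WT 14.7% and 27.4%). ATP6V1B1, a proton pump subunit of the collecting duct, had 9.36% and SLC5A1, a sodium-glucose transporter, 5.73% under H3K27me3 only. POU3F3, a factor of the developing nephron and brain, had 31.9% under EZH2 and 8.72% under H3K27me3 in KO, where WT had no EZH2 and 5.20% under H3K27me3.

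Of 94 ion channel and neurotransmitter receptor genes, 14 had both (14.9%), 8 EZH2 only (8.51%) and 20 H3K27me3 only (21.3%). Over all genes these shares were 6.27%, 3.66% and 11.0%. Of 88 axon guidance and synaptic adhesion genes the counts were 8 (9.09%), 6 (6.82%) and 14 (15.9%). Of 34 muscle genes they were 4 (11.8%), 3 (8.82%) and 7 (20.6%). Of 39 HOX genes 3 had both (7.69%, near the 6.27% of all genes), 2 H3K27me3 only and 34 neither, where 79.1% of all genes had neither. The clustered protocadherins (53 genes) and the 36 housekeeping genes measured had no peak of either kind, and of 250 zinc finger genes of chromosome 19 only 3 had a peak. Of 94 keratin-associated protein genes 2 had both (2.13%), 3 EZH2 only (3.19%) and 12 H3K27me3 only (12.8%), the last 2 near the shares of all genes. The lists were chosen with earlier results of these data known, and their counts are a description.

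Markers of cell types were described by class only, since peaks measure no expression. Of 12 kidney epithelial markers 10 had neither, a share near the 79.1% of all genes, and CDH6 and EMX2 had both. Of 18 blood and endothelial markers 5 had both (27.8%, against 6.27% of all genes), 5 H3K27me3 only (27.8%, against 11.0%) and 0 EZH2 only. Among those with both, TAL1 had only 4 bases of its window under EZH2 (0.0200%). FLI1, an endothelial and blood factor, had 7.84% under EZH2 and 5.44% under H3K27me3, and CD3D, a T cell receptor subunit, 4.17% under H3K27me3 only.

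The Polycomb genes themselves had both in a share near that of all genes. Of 36 PRC2 and PRC1 subunit genes 2 had both (5.56%, against 6.27%), 2 EZH2 only, 1 H3K27me3 only and 31 neither. BMI1, a PRC1 subunit, had 7.32% under EZH2 and 2.98% under H3K27me3 (WT 10.8% and 4.24%), and CBX8, a reader of the mark, 5.97% and 2.54% (WT 8.56% and 0%). CBX2, another reader, had H3K27me3 only. Of 25 NEXT, PAXT and exosome genes C1D had both, at 0.980% and 0.930%, and MPHOSPH6 had H3K27me3 only. Of 10 cyclin D and CDK inhibitor genes only CCND2, a cyclin of cell-cycle entry, had peaks, with 25.7% under EZH2 and 3.69% under H3K27me3 (WT 8.23% and 0.415%).

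**Figure D4:**
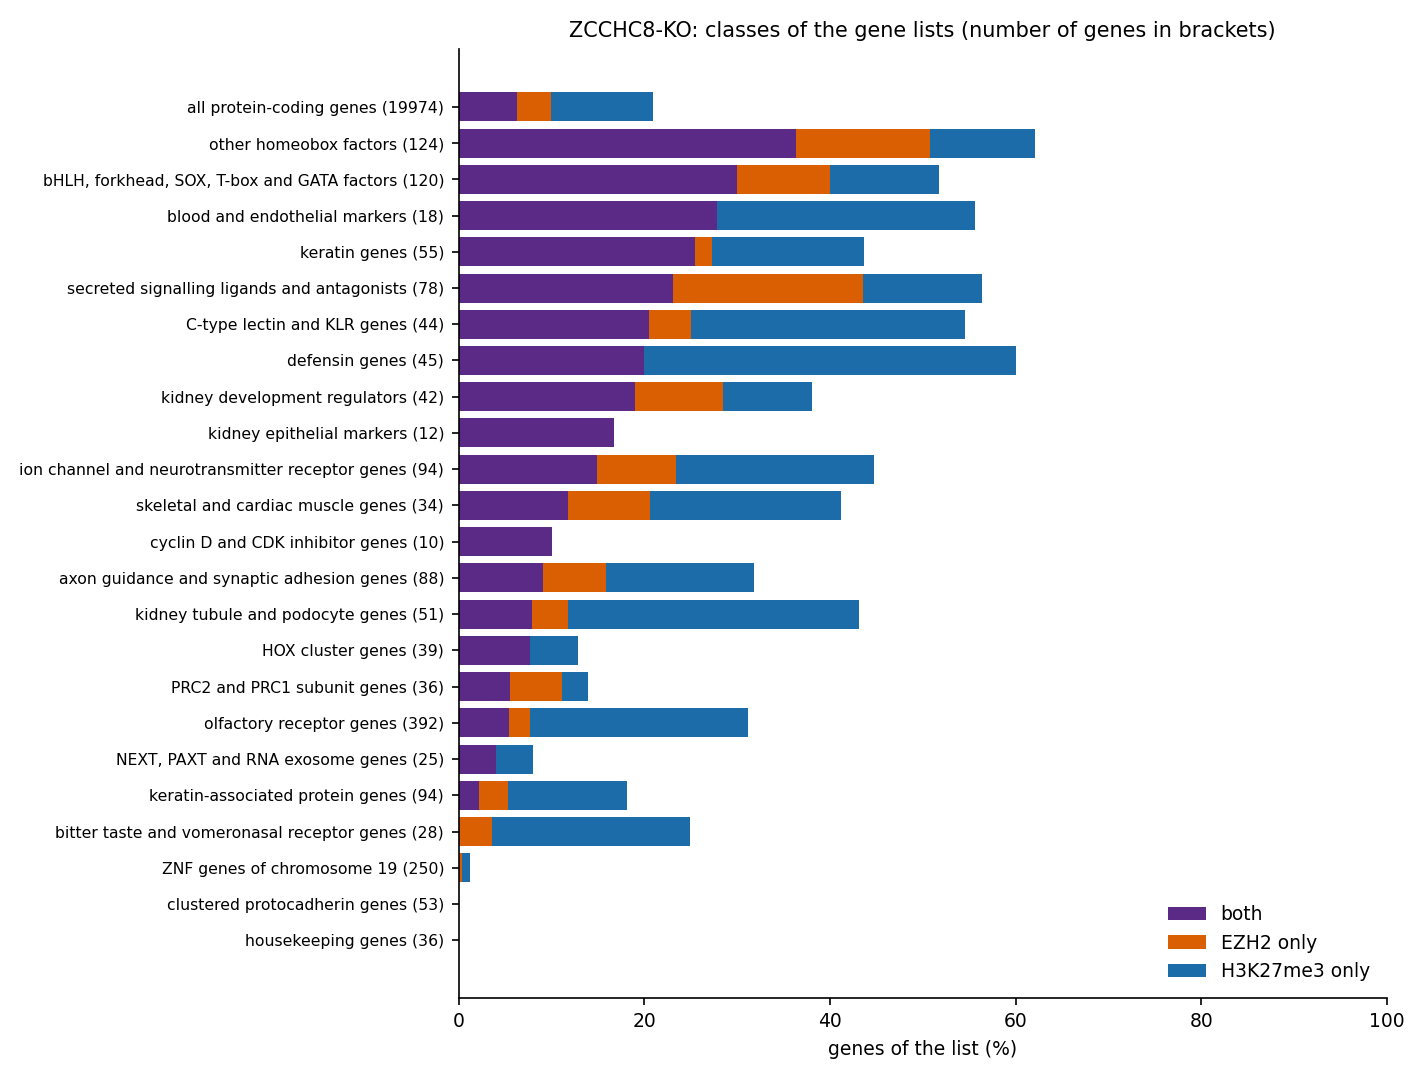
Share of the genes of each list (x axis, percent; number of genes in brackets) with both EZH2 and H3K27me3, EZH2 only or H3K27me3 only within 5 kb of a gene end in ZCCHC8-KO cells, with all 19974 protein-coding genes at the top. Homeobox factors lead with 36.3% in the class with both, while among olfactory receptors and tubule genes H3K27me3 only is the largest of the 3 classes (23.5% and 31.4%).

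To describe the mark as domains, H3K27me3 peaks no more than 10 kb apart were stitched. This gave 24003 domains over 151 Mb, or 4.97% of the 3029.8 Mb up to the last listed peak of each chromosome. Of these domains 53.6% were a single peak, and 4454 were 10 kb or wider. EZH2 midpoints lay inside a domain for 7563 of 19547 peaks (38.7%, interval 38.0 to 39.4%), and in WT for 33.0% in domains that took up 6.70% of the span. Of all KO domains 13.1% held an EZH2 midpoint, and of those of 10 kb or wider 49% (2181 of 4454).

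EZH2 was found in more of the wider domains and, from 10 kb upward, more densely. The share of domains holding EZH2 was 1.27% under 1 kb, 33.4% at 10 to 20 kb, 62.1% at 20 to 50 kb, 91.6% at 50 to 100 kb and 98.6% (70 of 71) at 100 kb or more. A wider domain has more room for a peak. EZH2 per Mb first fell with width, from 45.6 under 1 kb to 33.0 at 1 to 5 kb and 29.7 at 5 to 10 kb. It then rose to 37.6 at 10 to 20 kb, 50.9 at 20 to 50 kb, 72.1 at 50 to 100 kb and 106 at 100 kb or more. Over the steps from 10 kb upward the H3K27me3 peaks went from 336 to 413 per Mb, and their share of the domain length from 11.0% to 17.8%. In WT the EZH2 density rose over these steps from 40 to 91.3 per Mb. Without the gene-free stretch of chromosome 2 the value for the widest KO domains was 98.6 per Mb.

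Within and around domains, EZH2 fell off with distance from the mark. Midpoints numbered 110.4 per Mb on H3K27me3 peaks, 39.3 between the peaks of a domain, 12.3 up to 10 kb outside and 1.78 beyond 100 kb, against 6.45 over the whole span. In WT the same values were 90.9, 42.4, 16.6, 3.07 and 10.1. Per Mb the KO value was thus the higher one on the mark and the lower one at the other places given. The KO list holds fewer EZH2 peaks, and relative to the whole span of each list the KO value was also the higher one between the peaks of a domain (6.09 times against 4.18 in WT) and up to 10 kb outside (1.91 against 1.64). The span includes stretches where no read can map, which lowers the values far from domains. Most EZH2 inside domains did not sit on the mark's own peaks: 5005 midpoints lay between peaks and 2558 on them.

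Along domains of 10 kb or more, EZH2 was divided almost equally between the central and the outer 50% of the length. Of 6407 midpoints 3209 (50.1%, interval 48.9 to 51.3%) lay in the central 50% of the length, and 50.4% in WT. In 10 equal steps from the edge to the centre, the shares ran from 9.04% to 11.2%, with the 11.2% in the outermost step. The share in the central 50% was 48.6% in domains of 10 to 20 kb and 50.4% in those of 50 kb or more. For EZH2 peaks of 500 bp or more it was 51.9% (47.8 to 55.9%). Peaks on the mark lay slightly farther out, at 48.2% (46.3 to 50%), and those between its peaks at 51.7% (50 to 53.3%). A stitched domain begins and ends on an H3K27me3 peak, so its edges can hold EZH2 on the mark but not between peaks. The direction of this split is thus partly built in, and the part of this in the outermost step was not separated. The interval of all EZH2 peaks includes the 50% of an even spread.

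**Figure D5:**
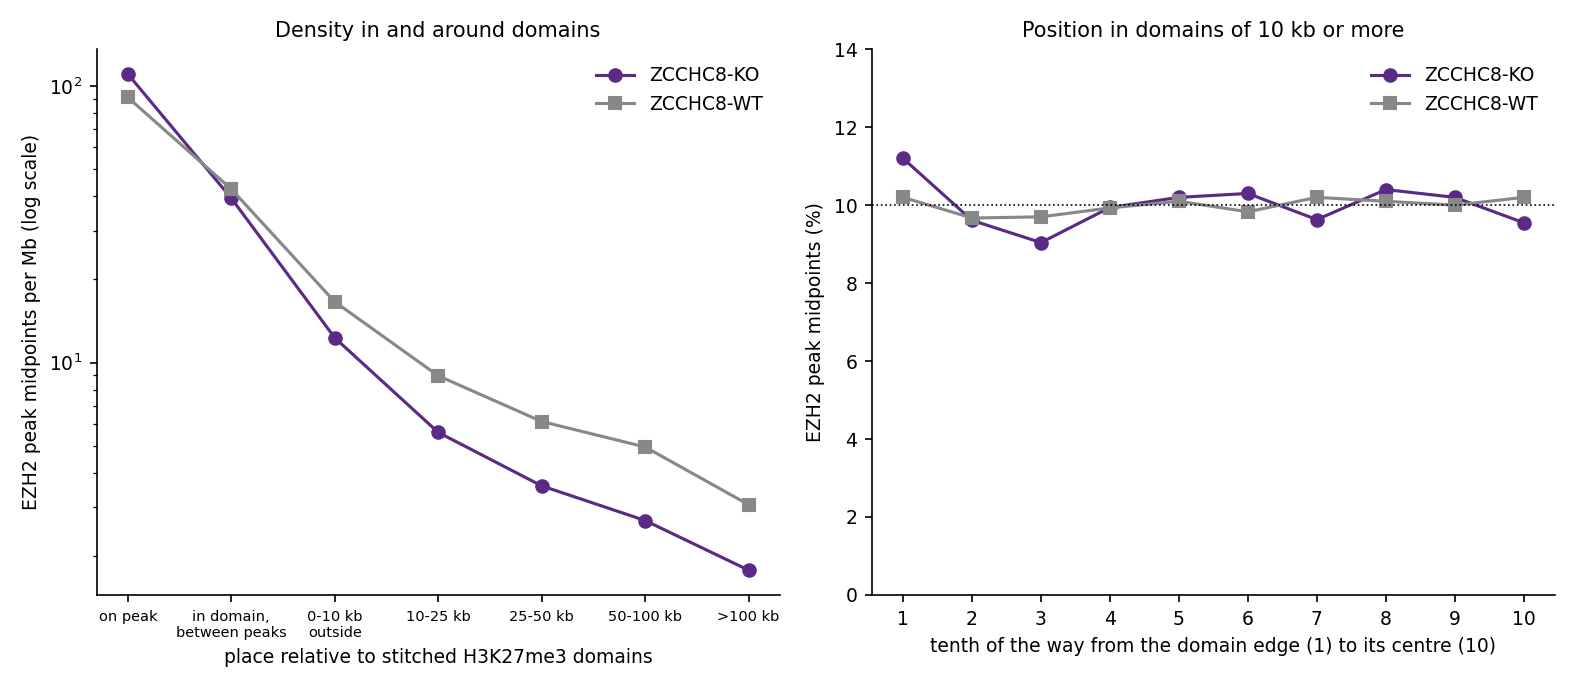
Left: EZH2 peak midpoints per Mb (log axis) on H3K27me3 peaks, between them inside stitched domains, and at growing distances outside, for ZCCHC8-KO (circles) and ZCCHC8-WT (squares); in KO the values fall from 110.4 to 1.78. Right: percent of EZH2 midpoints in each of 10 steps from the edge to the centre of domains of 10 kb or more, where an even spread gives 10% (dotted) and KO lies between 9.04% and 11.2%.

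The widest domains show both extremes. On chromosome 2, the stretch from 92271694 to 94017028, free of annotated genes, held 3 of the 4 widest, with 87, 135 and 32 EZH2 peaks over 821 kb, 627 kb and 277 kb. In hg38 that stretch is modelled centromeric repeat, where reads from different copies cannot be told apart, and it holds 1.30% of all EZH2 peaks. Outside it the widest was a 393 kb domain on chromosome 12 (64766447 to 65159557) over WIF1, a secreted Wnt inhibitor, and TBC1D30, with 200 H3K27me3 and 65 EZH2 peaks (WT 215 and 80). Next was a 199.9 kb domain on chromosome 7 (25183799 to 25383733) with NPVF, a neuropeptide gene, holding 77 and 24. A domain of 89.1 kb over HOXC13 and HOXC12 on chromosome 12 (53873352 to 53962461) held 33 EZH2 peaks, and WT had 33 there as well. Per kb it held more EZH2 peaks than any of the 5 widest.

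The widest domain without EZH2, 103 kb on chromosome 12 (55378213 to 55481278), covered the olfactory receptors OR6C65, OR6C76, OR6C2 and OR6C70 with 35 H3K27me3 peaks, and WT had 4 EZH2 peaks in it. The other 4 widest without EZH2 measured 73.7 to 93.9 kb. Of these 1 held SLC30A8, a zinc transporter of pancreatic islets, 1 held GALNT13, a glycosyltransferase of neurons, and the remaining 2 no gene. Each of these 4 had 2 EZH2 peaks in WT. So none of the 5 was without EZH2 in both genotypes.

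Named genes sat in domains of different make-up. KCNA1 lay in a 138 kb domain with 60 H3K27me3 and 29 EZH2 peaks, 17 of them in the central 50%. KLF14 lay in one of 129 kb with 59 and 14, of which 12 were central. PROKR1 lay in a domain of 114 kb with 59 and 24, of which 7 were central. RAB3C had the mark over 121 kb in 41 peaks with 1 EZH2 peak, and AVPR1A over 84.0 kb in 34 peaks with 3. Other named genes did not follow this split. The H3K27me3-only genes GTSF1 and DEFB103A lay in domains of 162 kb and 115 kb with 12 and 11 EZH2 peaks. The domain at ACOXL, a gene with both, measured 181 kb and held 5. It lay inside the gene, clear of the 5 kb windows that gave the class, so it is no exception to the split. Among the domains of this paragraph the number of EZH2 peaks ran from 1 to 29.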

How the data were processed

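ACHN chromatin was precipitated for EZH2 and H3K27me3 and sequenced as 150-base read pairs, per the labels' protocols. Genotype and title labels gave the groups, with 1 library each. cutadapt 1.9.3, Bowtie2 2.2.4 and hg38 are named, per the submitters' processing notes. Neither the peak caller nor the read depth is named there or in the labels. Precision is thus limited to counting error of peaks.

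The 4 deposited lists have 6 columns and no header. The authors' column 5 is the peak length in bp. It counts both end bases, which makes the coordinates 1-based. Column 6 is the authors' score, which no label defines, and was used only to rank or filter peaks.  Each list was made against the input of its genotype, as the file names state. In KO, 41215 EZH2 and 151474 H3K27me3 lines (1 to 81 copies of a line) gave 19566 and 69840 distinct peaks.

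Overlap means at least 1 bp. Genes (19974 protein-coding, RefSeq GRCh38.p14, matched by symbol within that table) were classed by peaks within 5 kb of either end, as the table gives no strand or exons. Domains were stitched across 10 kb. Shares have exact 95% Clopper-Pearson intervals. Python 3.11.15, NumPy 2.4.6, pandas 2.3.3, SciPy 1.17.1 and matplotlib 3.10.9 were used. As a check of the code on simulated data, 200 of 200 planted genes per class were recovered among 19974. Each simulated peak was placed inside the window of its gene, so recovery was given by the placement. For the 2 single classes, absence of the other kind of peak was not checked.

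Named genes were, per class, the 10 with the largest covered share (for both, the largest smaller of the 2 shares), with neighbours in a shared window counted once. From each of 23 gene lists up to 2 members per class could be named (not all are printed). The 6 PRC2 and NEXT genes given first were always named, and 5 domains per rule (widest with EZH2, widest without, most EZH2 peaks). Members and lists were chosen with earlier results of these data known. Departures from the design: promoter properties of the classes were void, and the share of the assembly was replaced by the span up to the last listed peak. Alternatives changed the score, overlap, window, stitching, position measure and chromosomes. The exclusion of the chromosome 2 stretch was chosen after seeing the data.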

Additional observations from a re-analysis of the deposited data

Results flagged for a closer look

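Chromosome Y entered no comparison. It held 19 distinct EZH2 peaks in the KO list against 2 in WT, and 8 H3K27me3 peaks against 4 in WT. These were noted because a signal in data left out of the comparisons was above its level in the control genotype. Over the other chromosomes both KO lists were the shorter ones (19547 against 30732 EZH2 peaks and 69832 against 93091 H3K27me3 peaks). Neither difference was tested, and no replicate exists.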

How the results depend on the processing

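Of 47 alternative values of the 8 main results, 27 stayed within the interval of the main value (for gene counts, within 1.5 times) and 20 moved. EZH2 peaks overlapping H3K27me3 (19%) came to 19.9% with the better-scored 50% of each list, 12.8% when 50% of the peak had to be covered and 18.2% without the chromosome 2 stretch. H3K27me3 peaks overlapping EZH2 (5.27%) came to 5.53%, 2.47% and 5.03% under the same settings. Genes with both (1252) numbered 685 with the better-scored peaks, 243 with 1 kb windows and 2398 with whole genes. EZH2-only genes (731) numbered 383 with 1 kb windows and 1278 with whole genes, and H3K27me3-only genes (2194) numbered 887 with 1 kb windows. With 1 kb windows the class with both was thus the smallest instead of EZH2 only. EZH2 midpoints in domains (38.7%) came to 36.6% with the better-scored peaks, 23.5% and 52.1% with stitching across 3 and 25 kb, and 37.9% without the chromosome 2 stretch. Domains with EZH2 (13.1%) came to 10.7%, 7.40% and 21.3% under the first 3 of these. The share in the central 50% (50.1%) came to 52.1% with 3 kb stitching. Fewer peaks and narrower or wider windows set the counts by construction. Leaving out chromosome 7 or the 1 Mb windows of high scores moved none of the 8. With the better-scored peaks 685 of the 1252 genes with both, 358 of the 731 EZH2-only and 1239 of the 2194 H3K27me3-only genes kept their class. The 30 named genes, the most covered of their classes, all did, while 26 of their 40 covered shares moved. No paired analysis was possible because each group has 1 library and the labels carry no replicate numbers. Unknown depth and an undefined score limit every absence stated here.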

Other observations

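Some long non-coding RNA genes carried EZH2 in both genotypes. The genes of this and the next paragraph were chosen after their values were seen. HOXC13-AS, beside HOXC13, had 17.1% of its window under EZH2 and 19.7% under H3K27me3 (WT 20% and 16.6%). EVX1-AS, which overlaps EVX1, had 29.2% under EZH2 and no mark (WT 16.1% and none), and TMEM132E-DT had 16.5% under EZH2 and no mark (WT 7.44% and none). These windows share peaks with those of their protein-coding neighbours and add no independent case.

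Among miRNA genes, members of 1 family differed in class. The 3 genes of miR-9, a miRNA of neural development, encode the same mature miR-9-5p, shown here from RefSeq with its seed in capitals because only some of its loci carried peaks.
hsa-miR-9-5p: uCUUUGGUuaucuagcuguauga
MIR9-1 had 15.5% of its window under EZH2 and 6.68% under H3K27me3 (WT 17.7% and 4.97%), and MIR9-3 had 5.73% and 4.31% (WT 4.07% and 2.15%). MIR9-2 had no peak in any list. Of the 3 genes of miR-124, another neural miRNA, MIR124-1 had EZH2 only, over 7.32% (WT 2.65%), and MIR124-2 and MIR124-3 had no peak in any list. In both families, then, the gene or genes with EZH2 in KO also had it in WT.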
